A study of Mus musculus with 9 samples.

Results

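Laminins, nidogens and perlecan are the proteins that, with type IV collagen, build the basement membrane, and their genes were described here across the choroid (CH), the retinal pigment epithelium (RPE) and the photoreceptors (PR) of the mouse. The members are the genes of the laminin chains Lama1, Lama2, Lama3, Lama4, Lama5, Lamb2 and Lamc1, the nidogens Nid1 and Nid2, and perlecan (Hspg2). They were chosen by name: a member probe is a probe that is not a control and whose gene name in the scanner files is 1 of these symbols. This gave 15 of the 39429 probes and 10 of the 31829 gene names on the array, and every listed gene had at least 1 probe. The probes of 4 genes (Lama2, Lama3, Nid1 and Hspg2) number 2 or 3, and the brightest probe of a gene is the one reported first.

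A basement membrane is a thin sheet of matrix on which epithelia and endothelia sit and which wraps muscle, fat and Schwann cells. A laminin is a heterotrimer of an alpha, a beta and a gamma chain. Its alpha chain is bound by integrins and dystroglycan at the cell surface, and its chains assemble into a network. Nidogens bind laminin and type IV collagen and link their networks, and perlecan, a large heparan sulfate proteoglycan, binds laminin, nidogen and growth factors. In the outer retina, the basement membrane of the RPE and that of the choroidal capillary endothelium form the inner and outer faces of Bruch's membrane, the matrix layer between the RPE and the choroid. The photoreceptors, which face the RPE on its other side, have no basement membrane of their own.

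All samples came from female C57BL/6 mice, an inbred laboratory strain, and none was treated. The study's methods name the substrain as C57BL/6JOlaHsd. The sample labels give the age of the mice as 6 months, with a range of 2 weeks, while the methods give a younger age. Each of the 3 CH, 3 RPE and 3 PR samples was cut from sections of a whole eye with a laser dissection microscope. By the study's methods, the sections were thicker for the PR than for the RPE and the CH. A Cresyl Violet stain served to find the photoreceptors, and the RPE was taken away before the choroid was cut. Section thickness thus went with the tissue in both comparisons against the PR, and its part was not tested. The RNA was amplified, labelled with the red dye Cy5 and hybridised to a dual-colour Agilent array against a common reference, which was RPE and choroid RNA of the same strain, sex and age labelled with the green dye Cy3. The dyes ran the same way on all 9 arrays. A level is therefore the log2 ratio of Cy5 to Cy3 after normalization within each array. A level of 0 is the centre of that array's ratios at the signal strength of the probe. A difference of 1 between tissues is a factor of 2. The sources used here do not say whether eyes of different samples came from different mice, so that p-values measure the spread between samples. Whether a tissue held fewer cells of a type or less RNA per cell cannot be told apart in such samples.

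Median Cy5 signals were between 617 and 1534, and between 63.1% and 91.8% of probes were well above background in Cy5. The array labelled RPE 2 stood apart with the highest values of both. Over all probes the arrays of a tissue correlated with r between 0.861 and 0.979, CH with RPE arrays between 0.652 and 0.791, and PR arrays with the others between 0.0866 and 0.322. Of the 135 values of the member probes, 122 were well above background, 0 were saturated and 0 were missing. Leaving out RPE 2 left the counts of called member probes at 0 and 0 between RPE and CH and at 11 for each tissue against PR. Each tissue had 3 arrays, and this number bounds how precise a level can be. The arrays lay on 3 slides, of which slide 1 held PR 1 and PR 3 only, slide 2 CH 1, CH 3, RPE 1 and RPE 3, and slide 3 the array numbered 2 of each tissue.

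Markers of the cell types that each dissection could hold were read on the same arrays. Of 8 RPE markers, 6 were called higher in the RPE than the CH, and 7 were called higher in the RPE than the PR and in the CH than the PR. All 8 rod and all 6 cone markers were called higher in the PR than in either other tissue. Of the 7 fibroblast markers 6 were called higher in the CH than the RPE, whereas 0 of 9 endothelial markers were called between these tissues (median log2 difference, RPE minus CH, -0.07).

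Sequences are shown for the nidogens, because the 3 probes of Nid1 read different places of the same gene and gave different answers. They are also shown for the promoters of Lama2 and Hspg2, which are of unlike base composition. The first 30 of the 60 bases of each nidogen probe are, in the direction that the files print them, with no base marked:
Nid1 A_55_P2084308: cagatgtatacaagtattggatgattcctc
Nid1 A_55_P2115713: ttctagagccataggacttcttcctaattc
Nid1 A_55_P2084303: tggaactgatcggagaactgagcttctatg
Nid2 A_51_P315666: acagtggaaaaggaattggccattatgagt
On build mm9, the files place the first Nid1 probe at chr13:13604435-13604494 and the second at chr13:13602780-13602839. The third spans chr13:13530138-13555992, a stretch far longer than the probe itself, so its ends fall on separate pieces of genome. The Nid2 probe lies at chr14:20630490-20630549. All 4 probes match the plus strand. The files do not say which exon or untranslated region a probe falls in.

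The promoters are from a RefSeq table (GRCm38.p6), 250 bases before to 50 bases after the start of the gene. Those of 5 of the 10 members were read here (Lama2, Lama5, Lamb2, Nid1 and Hspg2). Capitals mark GGGCGG or its reverse complement, the GC box bound by Sp1 and related factors.
Lama2, chr10:27616893-27617192, minus strand: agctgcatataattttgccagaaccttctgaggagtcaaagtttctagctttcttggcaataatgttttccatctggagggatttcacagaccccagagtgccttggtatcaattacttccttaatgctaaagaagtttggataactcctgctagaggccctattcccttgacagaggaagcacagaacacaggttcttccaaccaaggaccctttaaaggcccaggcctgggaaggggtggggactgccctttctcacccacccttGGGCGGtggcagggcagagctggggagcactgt
Hspg2, chr4:137468553-137468852, plus strand: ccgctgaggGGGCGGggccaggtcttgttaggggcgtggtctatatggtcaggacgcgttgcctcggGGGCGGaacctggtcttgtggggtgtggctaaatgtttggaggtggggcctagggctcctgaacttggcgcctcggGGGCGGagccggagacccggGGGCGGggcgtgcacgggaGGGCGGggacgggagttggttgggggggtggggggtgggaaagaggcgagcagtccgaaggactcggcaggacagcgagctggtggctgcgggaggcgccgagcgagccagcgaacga
The Lama2 promoter was 50.3% G and C with 1 CpG and 1 GC box, and that of Hspg2 was 70.3% G and C with 27 CpGs and 5 GC boxes. Over all 32851 promoters of the table the medians were 52.7% and 7 CpGs, and 35.7% held a GC box. The promoter of Lama5 held 4 GC boxes, that of Nid1 held 1 and that of Lamb2 held 0. The other motifs searched on both strands, none of which overlaps a GC box in these promoters, were CACGTG (in 7.15% of all promoters), TAATCC (7.06%), the core bound by Crx and Otx2, and TATAAA (13.6%). Among these 5 members, TAATCC was in the Lamb2 promoter only, at base 201, and CACGTG and TATAAA were in none.

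**Figure D1:**
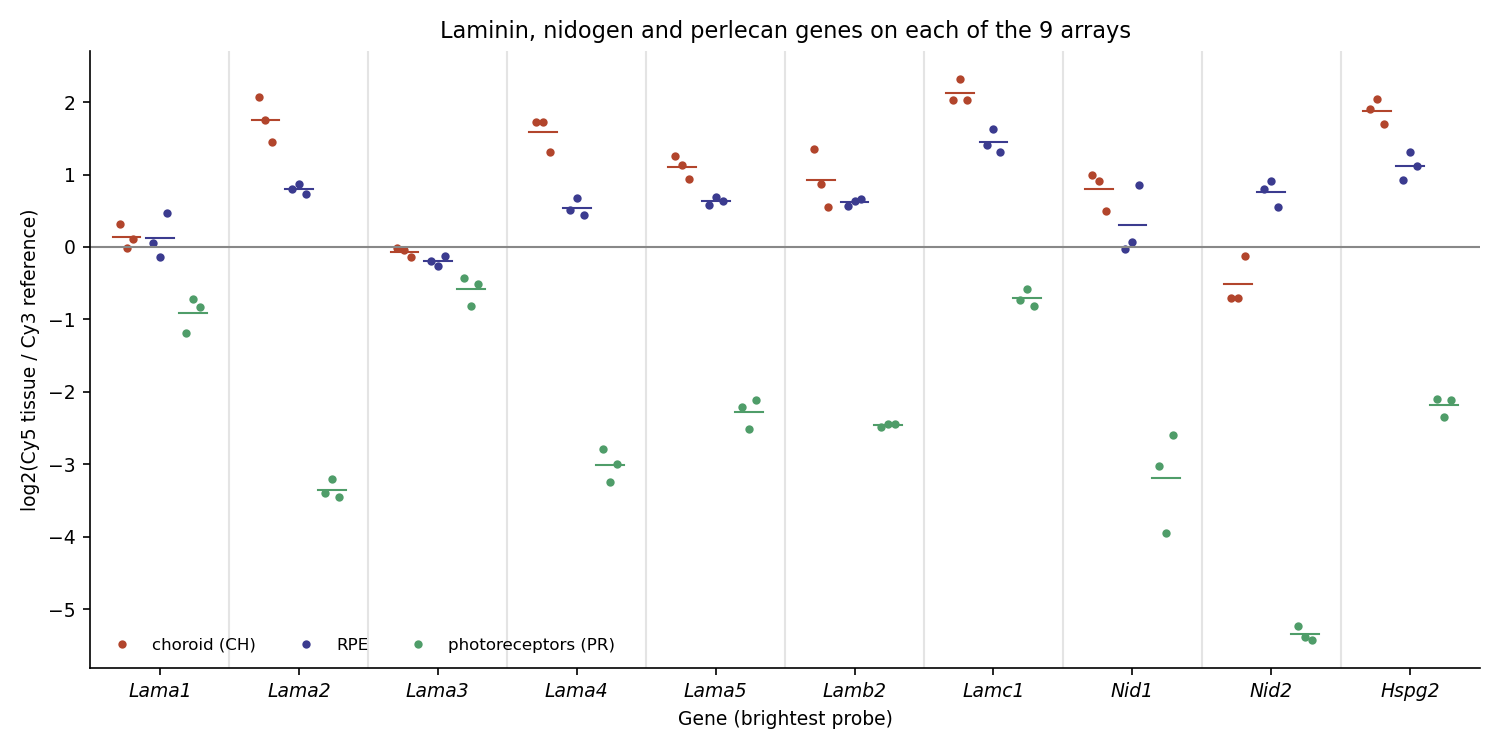
Level, as log2 of Cy5 over Cy3, of the brightest probe of each of the 10 genes on the 9 arrays; points are arrays, short lines are the means of the 3 arrays of a tissue, and colours are tissues. The PR arrays lie below the CH and RPE arrays for every gene, least so for Lama3 and Lama1, and Nid2 is the gene whose RPE arrays all lie above its CH arrays.

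The first comparison asks which of these genes the RPE expressed at another level than the choroid that lies behind it. Of the 15 member probes, 0 were called higher in the RPE and 0 were called higher in the CH, where a call is a fold change over 2.5 with an adjusted p under 0.01 (limma, Benjamini-Hochberg over all probes). Over the whole array, 0.185% of probes and 0.217% of genes were called higher in the RPE, and 1.55% of probes and 1.81% of genes were called higher in the CH. At an unadjusted p under 0.05 the counts of member probes were 1 higher in the RPE (17.9% of all probes) and 8 higher in the CH (15.7% of all probes). With an adjusted p under 0.01 at any fold, a count added after seeing the data, 1 member probe was higher in the RPE (5.18% of all probes) and 5 were higher in the CH (6.92% of all probes). The probe higher in the RPE was that of Nid2, and those higher in the CH belonged to Lama2, Lama3, Lama4, Lamc1 and Hspg2. The median log2 difference, RPE minus CH, was -0.48 over the 15 probes and 0.04 over all probes.

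Nid2, a nidogen of vessel and epithelial basement membranes, had levels of -0.71, -0.70 and -0.13 in the CH and of 0.80, 0.90 and 0.55 in the RPE. Every RPE array lay above every CH array. The log2 difference was 1.26 (95% interval 0.89 to 1.64, adjusted p = 0.000856), a 2.40-fold higher signal in the RPE, which is under the fold of 2.5 that a call needed. The difference was 1.09 within slide 2 and 1.61 within slide 3. It stood as a call without CH 3 (1.46) and without RPE 3 (1.36). When the Cy5 channel was read without the reference it was 1.25 with an adjusted p of 0.0667, and in the authors' series table it was 1.22 with an adjusted p of 0.0563.

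Nid1, the other nidogen, which was named entactin when it was found, showed no such difference at its brightest probe. Its levels were 0.99, 0.91 and 0.50 in the CH and -0.02, 0.07 and 0.86 in the RPE. The groups overlapped, with RPE 3 within the range of the CH arrays. The log2 difference was -0.50 (95% interval -1.26 to 0.26, adjusted p = 0.349), and without RPE 3 it was -0.78 with an adjusted p of 0.166. RPE 3 was the highest RPE array at the second Nid1 probe too.

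The pair of nidogens can be compared array by array, since both probes were read on the same arrays. The Nid2 level minus the Nid1 level ran from -1.70 to -0.63 in the CH and from -0.30 to 0.84 in the RPE. The mean of this quantity was 1.77 higher in the RPE, with no overlap of the arrays. A two-sided exact permutation test gave p = 0.1, the smallest that 3 arrays against 3 allow, and 0.15 after adjustment over the 6 such comparisons made.

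Among the alpha chains, the largest log2 differences between the RPE and the CH were those of Lama4 and the brighter Lama2 probe. Lama4, the alpha chain of vessel, fat and muscle basement membranes, had levels of 1.72, 1.72 and 1.31 in the CH and of 0.51, 0.68 and 0.44 in the RPE. All CH arrays lay above all RPE arrays, by a log2 difference, RPE minus CH, of -1.04 (95% interval -1.38 to -0.70, adjusted p = 0.00144). The same difference was -1.04 within slide 2 and -1.04 within slide 3. With median centring in place of loess it was -1.37 and passed the fold threshold.

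Lama2, the alpha chain of muscle and Schwann cell basement membranes, had levels of 2.06, 1.75 and 1.44 in the CH and of 0.80, 0.86 and 0.73 in the RPE at its brighter probe. The RPE arrays lay closer together than the CH arrays and below all of them. The log2 difference was -0.96 (95% interval -1.29 to -0.62, adjusted p = 0.00190), and at the second probe it was -0.70 (adjusted p = 0.0161). Its values were -0.99 within slide 2 and -0.89 within slide 3.

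Lama5, the alpha chain of most adult epithelial and vascular basement membranes, differed less. Its levels were 1.25, 1.13 and 0.94 in the CH and 0.57, 0.70 and 0.63 in the RPE, without overlap. The log2 difference was -0.47 (95% interval -0.76 to -0.19, adjusted p = 0.0246), which is outside the p threshold.

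Lama1, the alpha chain of early embryonic basement membranes and of the inner limiting membrane of the retina, had levels of 0.32, -0.02 and 0.11 in the CH and of 0.06, -0.14 and 0.46 in the RPE. The arrays of these tissues were interleaved. The log2 difference was -0.01 (95% interval -0.41 to 0.39, adjusted p = 0.983).

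Lama3, the alpha chain of the laminin that anchors the epidermis, gave unlike values at its probes. At the brighter probe the levels were -0.02, -0.05 and -0.14 in the CH and -0.20, -0.26 and -0.13 in the RPE, with an overlap and a log2 difference of -0.13 (adjusted p = 0.496). At the dimmer probe, 391 bases nearer the end of the gene, the levels were -0.15, -0.25 and -0.41 in the CH and -1.15, -1.13 and -0.70 in the RPE, with no overlap. There the log2 difference was -0.72 (95% interval -1.05 to -0.40, adjusted p = 0.00667), and its adjusted p was 0.01 or more under 11 of the 22 alternatives tried for such values.

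The beta and gamma chains stood between these genes. Lamc1, the gamma chain that most laminins hold, had levels of 2.03, 2.32 and 2.02 in the CH and of 1.41, 1.63 and 1.31 in the RPE. Its arrays did not overlap, and the log2 difference was -0.67 (95% interval -0.95 to -0.39, adjusted p = 0.00441). Lamb2, the beta chain of kidney filter, neuromuscular junction and retinal laminins, had levels of 1.35, 0.87 and 0.56 in the CH and of 0.57, 0.64 and 0.66 in the RPE. The CH arrays were spread widely and CH 3 lay below all RPE arrays, so that the log2 difference of -0.30 (95% interval -0.68 to 0.07, adjusted p = 0.247) was within the spread. Without CH 3 it was -0.49 with an adjusted p of 0.0342, and without CH 1, the highest array, it was -0.09 with an adjusted p of 0.660.

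Hspg2, the perlecan core protein, had levels of 1.90, 2.04 and 1.69 in the CH and of 0.93, 1.30 and 1.12 in the RPE. All CH arrays were above all RPE arrays. The log2 difference was -0.76 (95% interval -1.06 to -0.46, adjusted p = 0.00327), and at the second probe it was -0.48 (adjusted p = 0.0962). Within slides 2 and 3 the first probe gave -0.77 and -0.74.

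**Figure D2:**
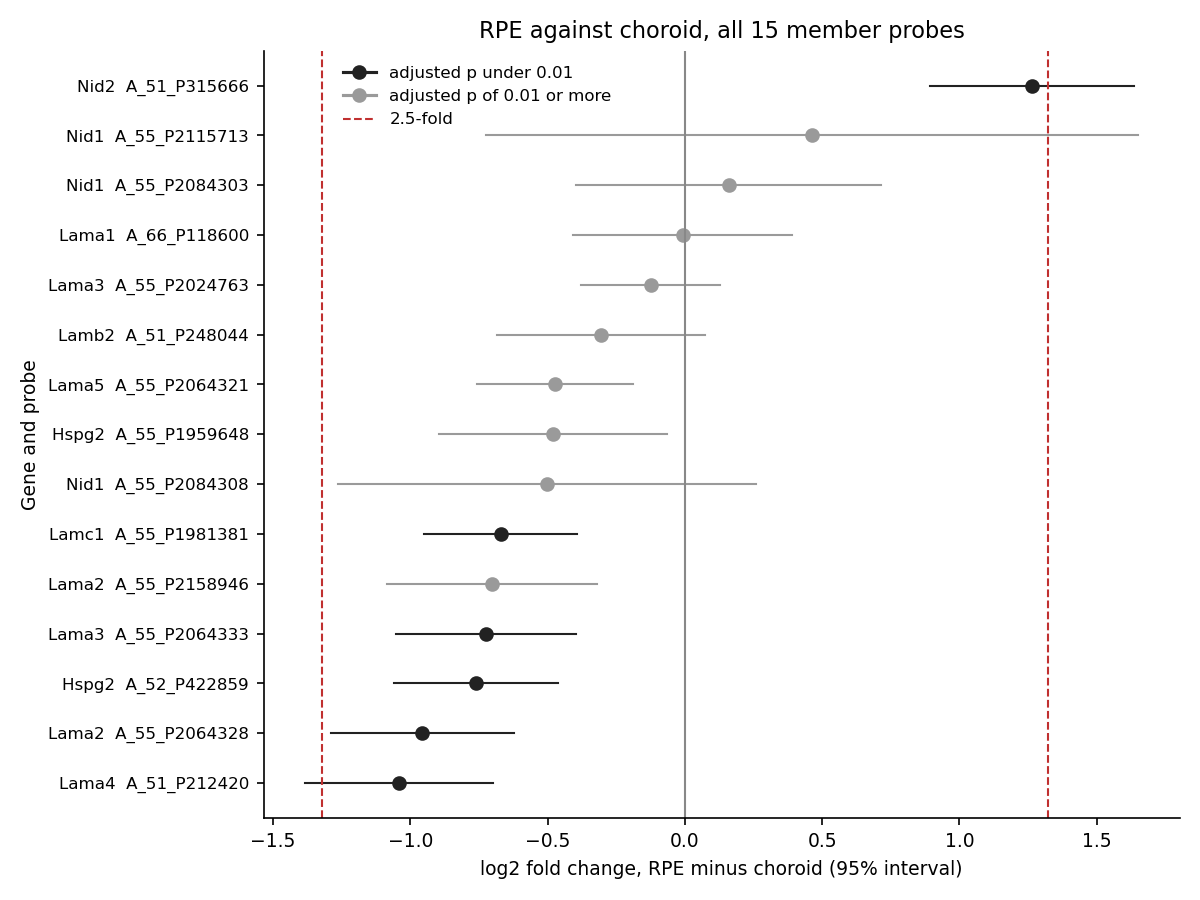
Log2 fold change of the RPE minus the CH for the 15 member probes, from lowest to highest, with 95% intervals from the limma fit; black marks an adjusted p under 0.01, grey a higher one, and dashed lines the fold of 2.5 in either direction. All probes lie between the dashed lines, Nid2 at 1.26 on the right and Lama4 at -1.04 on the left.

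By the medians of their lists, markers of stromal cells moved with the lower RPE values. Not every gene did: Fbn1 (fibroblasts), Mbp (Schwann cells) and Csf1r (immune cells) were higher in the RPE at their brightest probes. The 7 fibroblast markers had a median log2 difference, RPE minus CH, of -1.88. Their summed Cy5 signal ran from 935740 to 1019800 in the CH and from 308450 to 412800 in the RPE. Dcn, 1 of the 7, was saturated on all 3 CH arrays, so their sum in the CH is a lower bound. Of the 8 pericyte and smooth muscle markers 2 were called higher in the CH (median -0.84, summed signal 248200 to 387460 in the CH and 154540 to 211980 in the RPE). Of the 7 Schwann cell markers 2 were called higher in the CH (median -0.56). So were 1 of 6 melanocyte markers (median -0.83) and 1 of 6 immune cell markers (median -0.98). Among the melanocyte markers, Dct was saturated on all 3 CH and all 3 RPE arrays and Mlana on 1 CH array. All markers of these lists were well above background on at least 1 array of both tissues. Their part in the differences of Lama2, Lama3, Lama4, Lamc1 and Hspg2 was not tested.

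The RPE markers moved the other way, with Nid2. Of the 8, 6 were saturated on at least 1 RPE array and 4 on at least 1 CH array, where the scanner gives only a lower bound. As read, their median log2 difference, RPE minus CH, was 1.53, and their summed signal ran from 1646000 to 2037700 in the CH and from 2235300 to 2470100 in the RPE. All 8 were well above background on at least 1 RPE array, and on the CH arrays only Best1 was not. Rod markers had a median difference of 0.55, cone markers of 0.30 and Müller glia and astrocyte markers of 0.27. Of the 6 glial markers 1 was called higher in the RPE, Clu, which was saturated on all 3 CH and all 3 RPE arrays. Gfap, another of them, was lower in the RPE (-0.65) and not called. The part of these cells in the Nid2 difference was not tested.

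The second comparison set the RPE against the photoreceptors on its inner side. Of the 15 member probes 11 were called higher in the RPE and 0 were called higher in the PR. Over all probes 10.3% were called higher in the RPE and 5.17% were called higher in the PR. By genes, 9 of 10 members had a probe called higher in the RPE, against 11.3% of all genes, and 0 had one called higher in the PR, against 5.66%. At an unadjusted p under 0.05, 15 member probes were higher in the RPE (27.1% of all probes) and 0 in the PR (28.1%). The median log2 difference, RPE minus PR, was 2.91 over the member probes and -0.01 over all probes.

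The CH was set against the same PR arrays, a comparison that is not among those of the study's methods. Here 11 of 15 member probes were called higher in the CH, against 12.0% of all probes, and 0 were called higher in the PR, against 6.33%. By genes, 9 of 10 members were called higher in the CH, against 13.2% of all genes, and 0 were called higher in the PR, against 6.84%. At an unadjusted p under 0.05, 14 member probes were higher in the CH (26.9% of all probes) and 0 in the PR (31.0%). The median log2 difference, CH minus PR, was 3.38 over the member probes and -0.05 over all probes. The split of calls over all probes depended on the scaling, from 4062 higher in the RPE and 2039 higher in the PR to 4240 and 3573 with the scanner software's own log ratio. For the CH it went from 4751 and 2496 to 4964 and 4367, while the member counts under that ratio were still 11 and 0 in both comparisons.

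Nid2 had the largest difference between the RPE and the PR of all member probes, and Lama2 between the CH and the PR. The levels of Nid2 in the PR were -5.22, -5.38 and -5.42, far below those in the other tissues given above. Its signal was 68.3-fold higher in the RPE than the PR (log2 difference 6.09, 95% interval 5.72 to 6.47, adjusted p = 7.23e-09). It was 28.4-fold higher in the CH than the PR (log2 difference 4.83, 95% interval 4.46 to 5.20). All 3 PR arrays were still well above background at this probe.

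Lama2 was at -3.39, -3.20 and -3.45 in the PR. Its signal was 34.4-fold higher in the CH than the PR (log2 difference 5.10, 95% interval 4.77 to 5.44, adjusted p = 5.45e-09) and 17.7-fold higher in the RPE (log2 difference 4.15). Lama4 was at -2.78, -3.24 and -2.99 in the PR, with log2 differences of 4.59 for the CH and 3.55 for the RPE. Lama5 was at -2.21, -2.52 and -2.11 in the PR, with log2 differences of 3.38 and 2.91. These 3 alpha chains had no array of the CH or RPE near the PR arrays.

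Nid1 was at -3.03, -3.95 and -2.60 in the PR at its brightest probe, the widest spread of any member there. The log2 differences were 3.99 for the CH (95% interval 3.23 to 4.76) and 3.49 for the RPE (95% interval 2.73 to 4.25), both called. With slide as a block they were 4.69 and 4.19.

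Lamb2 was at -2.48, -2.44 and -2.45 in the PR, the narrowest spread, and its log2 differences were 3.38 for the CH and 3.08 for the RPE. Lamc1 was at -0.73, -0.58 and -0.82, with log2 differences of 2.83 and 2.16. Hspg2 was at -2.10, -2.34 and -2.11 at its brightest probe, with log2 differences of 4.06 and 3.30. For each of these genes all PR arrays were below all others, and all the differences were called.

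Lama1 and the brighter probe of Lama3 were the exceptions among the brightest probes. Lama1 was at -1.18, -0.72 and -0.83 in the PR, with log2 differences of 1.05 for the CH (adjusted p = 0.000600) and 1.04 for the RPE (adjusted p = 0.000715). The arrays did not overlap, but the fold of 2.07 and 2.06 was under that of a call. With slide as a block these differences were 0.64 and 0.64, with adjusted p of 0.0559 and 0.0629, and within slide 3 they were 0.70 and 0.58. The brighter Lama3 probe was at -0.42, -0.82 and -0.51 in the PR, with log2 differences of 0.51 (adjusted p = 0.00321) and 0.39 (adjusted p = 0.0162).

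**Figure D3:**
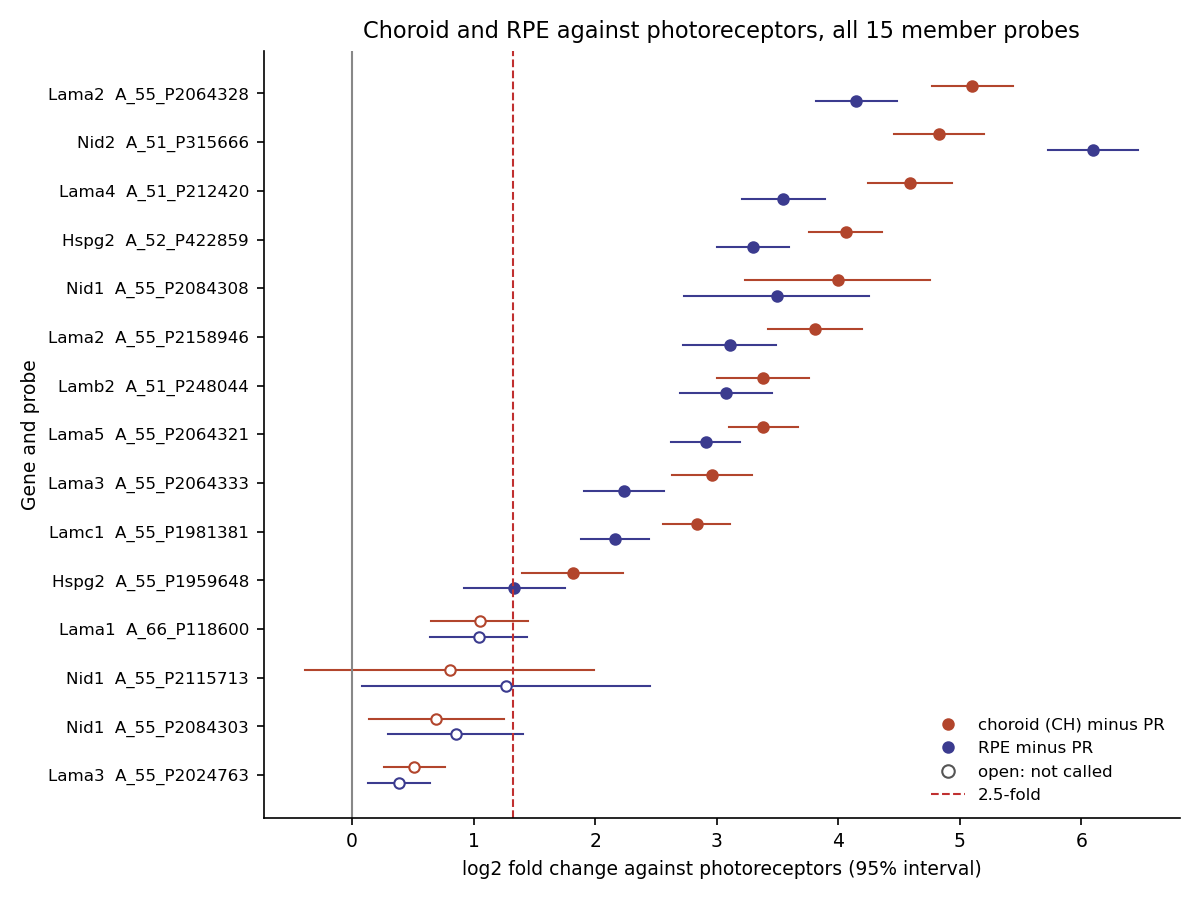
Log2 fold change of the CH (red) and of the RPE (blue) over the PR for the 15 member probes, ordered by the CH value, with 95% intervals; filled points passed both thresholds and the dashed line is a fold of 2.5. Both comparisons use the same 3 PR arrays; Nid2 at 6.09 in the RPE and Lama2 at 5.10 in the CH lie farthest right, and the open points are those of Lama1, the brighter Lama3 probe and the dimmer Nid1 probes.

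Markers of other cells moved with these differences too. The 9 endothelial markers had a median log2 difference of 3.26 for RPE minus PR and 3.38 for CH minus PR, and 8 of 9 were called in each. The 7 fibroblast markers were all called higher in both tissues than the PR (medians 4.29 and 5.68 as read). Their summed Cy5 signal was between 46380 and 61264 in the PR. The 8 rod markers, of which 7 were saturated on at least 1 PR array, had medians of -4.26 and -4.87 as read. Rod signal was also read outside the PR: the summed Cy5 signal of these markers ran from 566760 to 896450 in the CH, from 842500 to 1105700 in the RPE and from 2345600 to 3343900 in the PR. All endothelial and fibroblast markers were above background on at least 1 PR array. The part of these cells in the values of the members was not tested.

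In Lama2 and Lama3 the probe nearest the 3′ end of the gene had the larger difference between the tissues and the PR. In Hspg2 and Nid1 the probes farther from that end were not well above background on every array, so the order of their differences is not read here. The study's methods state that labelling started from the 3′ end of the RNA. They also give RNA integrity numbers, whose range lay somewhat higher in the PR than in the CH and RPE, with overlap. The part of RNA integrity, of probe position and of the transcripts each probe can read was not tested.

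In Nid1 the second probe lies 1655 bases before the first. Its levels were -0.62, -1.27 and -2.23 in the CH, -1.69, -1.42 and 0.39 in the RPE, and -2.25, -2.26 and -2.02 in the PR. The CH and RPE arrays were scattered over the whole range, and 2 of 3 CH arrays and 2 of 3 PR arrays were above background. The log2 difference, RPE minus PR, was 1.27 (95% interval 0.08 to 2.45, adjusted p = 0.0736), and it was 0.62 without RPE 3. The third probe was above background on 1 of the 9 arrays, RPE 2, so that its ratios are not read as levels here.

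In Hspg2 the second probe lies 947 bases before the first. In the PR it was at 0.08, -0.43 and -0.53, and only 1 of 3 PR arrays was well above background, whereas it was at 1.63, 1.74 and 1.19 in the CH and at 1.11, 0.91 and 1.10 in the RPE. The log2 differences were 1.81 for the CH and 1.33 for the RPE, and with the scanner software's own log ratio they were 3.18 and 2.91. The RPE value is just past the fold of 2.5, and without RPE 1, RPE 3, PR 2 or PR 3 it fell between 1.21 and 1.30 and was no longer called.

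In Lama2 the probes lie 126 bases apart, and the second was at -1.96, -2.39 and -2.03 in the PR, with log2 differences of 3.81 for the CH and 3.11 for the RPE. In Lama3 the dimmer probe was at -3.07, -3.41 and -3.20 in the PR and above background on 2 of 3 PR arrays. Its log2 differences were 2.96 for the CH and 2.24 for the RPE, both called, against 0.51 and 0.39 at the brighter probe. For Lama3 and Nid1 the call against the PR thus depended on the probe.

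**Figure D4:**
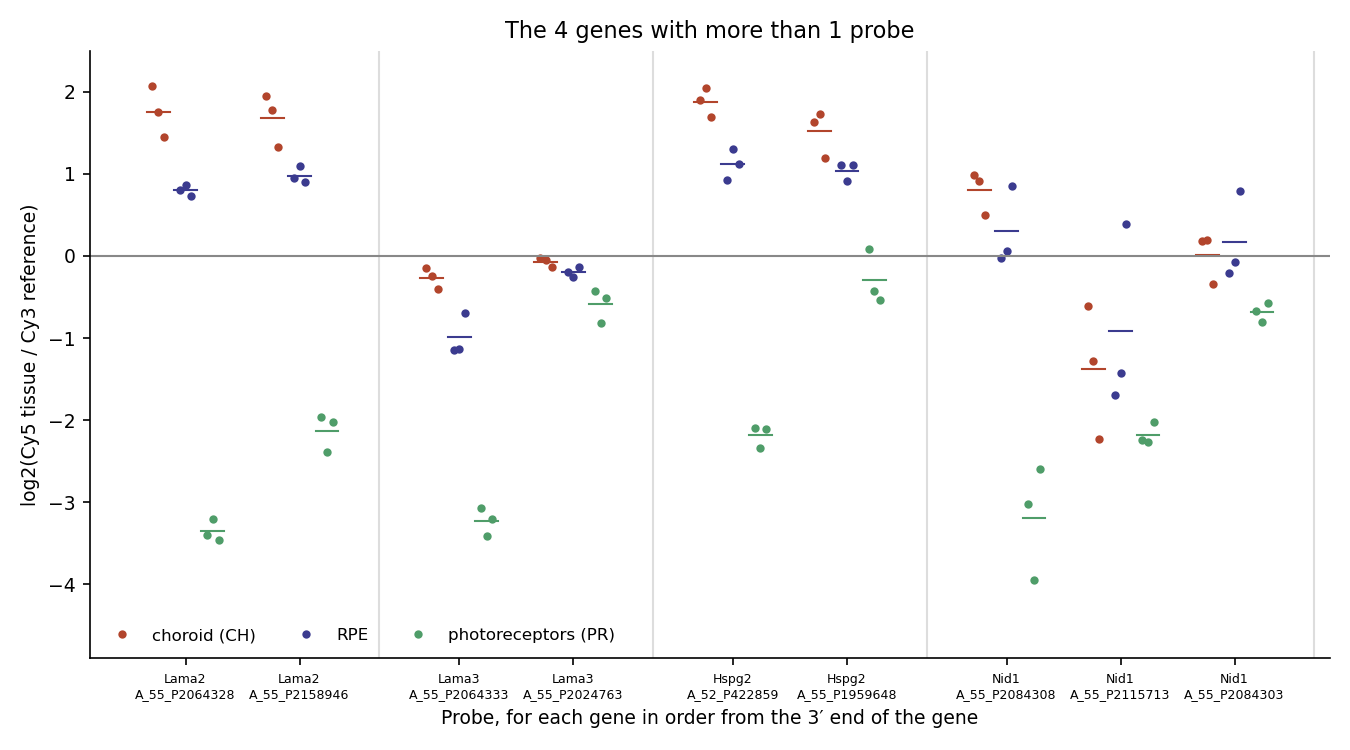
Level, as log2 of Cy5 over Cy3, on the 9 arrays at each probe of the 4 genes with more than 1 probe, ordered within a gene from the 3′ end; points are arrays and short lines are means of 3. In Lama2 and Lama3 the PR arrays lie farther below the others at the first probe than at the second; the third Nid1 probe was above background on 1 array only.

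The rest of the basement membrane was read from a list of 33 other genes. Between the RPE and the CH, 0 were called higher in the RPE and 3 were called higher in the CH (Smoc2, Itgb4 and Fbln1). Of all genes, 0.217% were called higher in the RPE and 1.81% in the CH. The median log2 difference, RPE minus CH, was -0.25. Against the PR, 24 of 33 were called higher in the RPE (11.3% of all genes) and 26 of 33 in the CH (13.2% of all genes). In each, 1 gene, Egflam, was called higher in the PR (5.66% and 6.84% of all genes).

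Of the 3 laminin chains on this list, Lamb1 and Lamc3 were called higher in the RPE and CH than the PR, and Lamb3 was called in no comparison. Lamb1, the beta chain that most tissues use, had levels of 0.19, 0.05 and 0.51 in the CH, 0.77, 0.65 and 0.64 in the RPE and -3.14, -3.34 and -3.29 in the PR. All RPE arrays lay above all CH arrays, by a log2 difference of 0.44 (95% interval 0.15 to 0.72, adjusted p = 0.0334) that missed the p threshold. The Lamb1 level minus the Lamb2 level was 0.74 higher in the RPE than the CH, without overlap of the arrays (exact permutation test, two-sided, p = 0.1, the smallest possible, and 0.15 after adjustment).

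Lamc3, a gamma chain found in brain and retina, was at 2.72, 2.71 and 2.45 in the CH, at 2.14, 2.20 and 2.22 in the RPE and at -1.52, -1.62 and -1.59 in the PR. Its log2 differences to the PR were 4.20 and 3.76. Lamb3 is the beta chain that joins Lama3 in the skin, and its levels ran from -2.88 to -2.20 over all 9 arrays. Its log2 difference, RPE minus CH, was 0.15 (adjusted p = 0.586).

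Of the laminin receptors, 0 of 7 were called higher in the RPE (0.217% of all genes) and 1 of 7, Itgb4, was called higher in the CH (1.81%). Itgb4, the integrin beta chain of hemidesmosomes, which also serves in Schwann cells and vessels, was at 1.45, 1.49 and 0.75 in the CH and at -0.75, -0.43 and -0.92 in the RPE, a log2 difference, RPE minus CH, of -1.93 (adjusted p = 0.000310). Itga6, its alpha partner, differed by -0.25 (adjusted p = 0.453). The receptors as a group had a median of -0.25. Set against the PR, 6 of 7 were called higher in the RPE (11.3% of all genes) and 7 of 7 higher in the CH (13.2% of all genes).

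Smoc2, a calcium-binding matrix protein, was 4.27-fold higher in the CH than the RPE, with levels of -0.50, -0.50 and -0.88 in the CH and of -2.57, -2.79 and -2.80 in the RPE. Fbln1, a fibulin of vessel walls and basement membranes, was 3.35-fold higher in the CH. Of the 8 collagens of the list, 0 were called between the RPE and the CH (0.217% of all genes higher in the RPE, 1.81% in the CH). Their median log2 difference, RPE minus CH, was 0.32, that of the 15 other matrix proteins was -0.87, and the 3 laminin chains had a median of 0.15. Col4a3 and Col4a4, chains of the type IV collagen found in kidney filter and lung, were singled out after their values were seen. They were 2.49-fold (adjusted p = 0.000129) and 2.18-fold (adjusted p = 0.00114) higher in the RPE, as Nid2 was. Like Nid2 they stayed under the fold of a call at these probes. Another Col4a4 probe had a log2 difference of 1.31 (adjusted p = 0.00235), also under that fold. The study's own list of mouse RPE signature genes, made with the same thresholds, includes Col4a4. Unlike Nid2, Col4a3 was higher in the PR than the CH (log2 difference, CH minus PR, of -0.78, adjusted p = 0.000187).

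Against the PR the largest called differences of the list were those of Frem1, Col18a1 and Lamb1 for the RPE, with log2 differences of 4.76, 4.39 and 3.94. Frem1 is a protein of the Fraser complex under epithelia, and Col18a1 is the collagen that gives endostatin. For the CH they were those of Itgb4, Fbln1 and Lamc3, at 5.13, 4.82 and 4.20. Egflam, the gene of pikachurin, which binds dystroglycan at the photoreceptor synapse, was at 2.17, 2.04 and 2.28 in the PR. It was the only gene of the list called higher in the PR. Its RPE levels were -0.07, -0.68 and -0.54, and no CH array was above 0.04. The log2 differences, tissue minus PR, were -2.59 for the RPE and -2.73 for the CH.

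**Figure D5:**
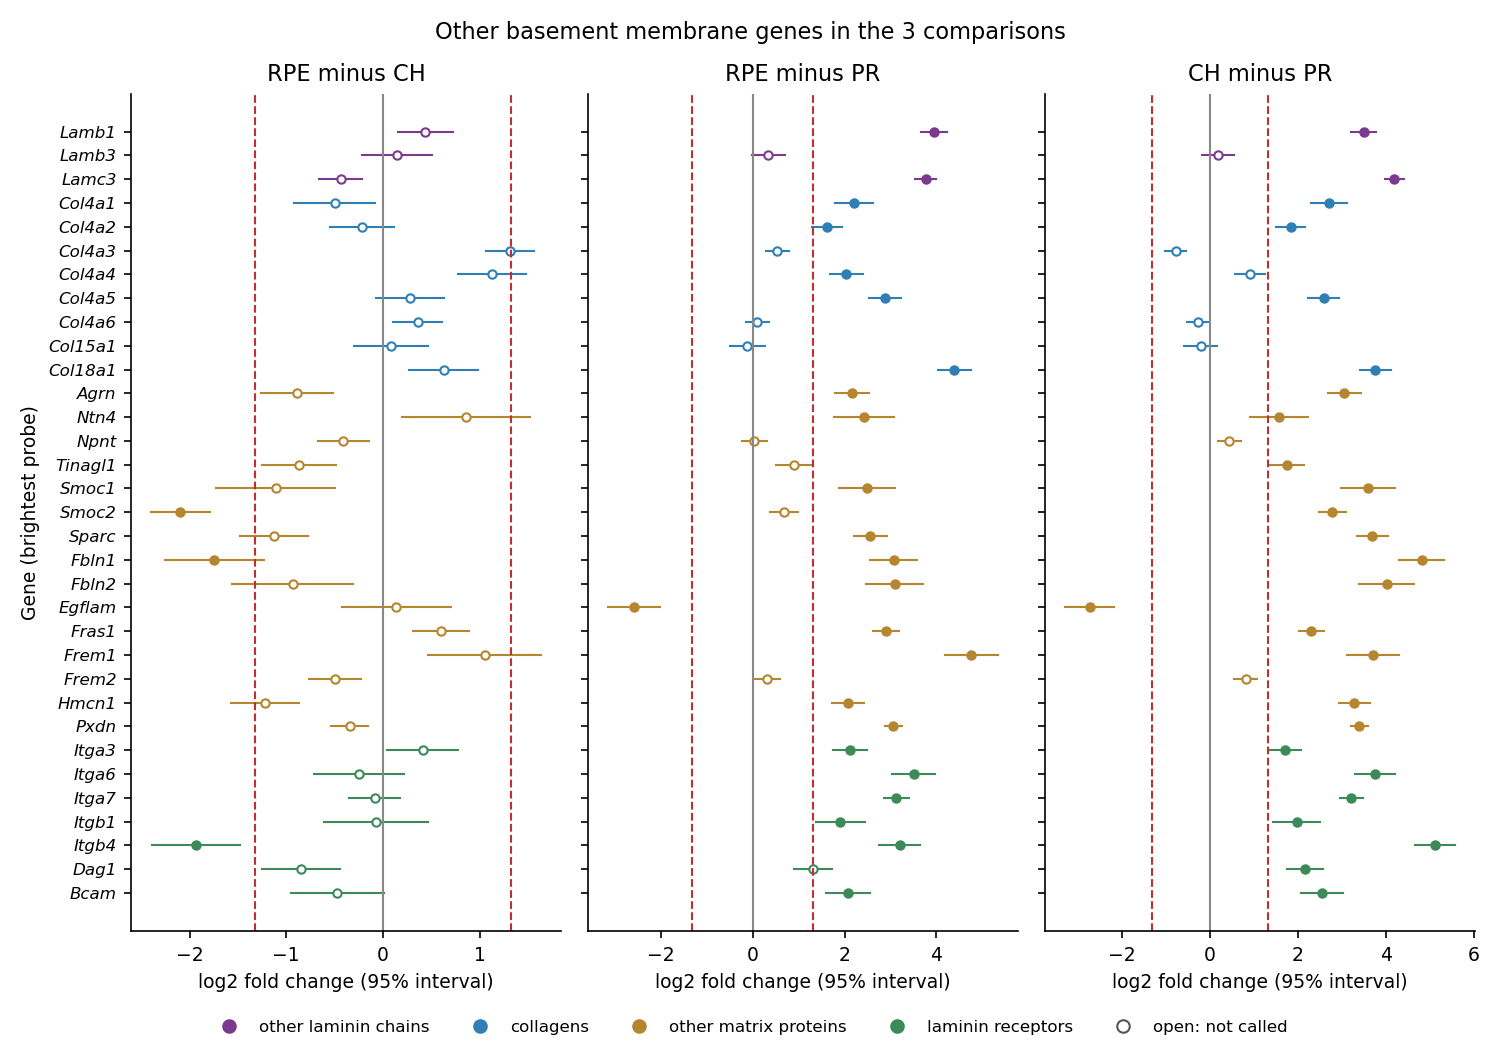
Log2 fold change with 95% interval of 33 other basement membrane genes in the 3 comparisons, at the brightest probe of each; colours are the kinds of protein, filled points passed both thresholds and dashed lines are a fold of 2.5. Smoc2, Fbln1 and Itgb4 are the filled points left of the dashed line between the RPE and the CH, and Egflam is the filled point left of 0 against the PR; a gene called at another of its probes, such as Col4a6, has an open point here.

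The genes whose levels followed a member most closely over the 9 arrays were found by Pearson correlation, which the difference between the tissues dominates. For Lama2 they were Pdgfrb, the platelet-derived growth factor receptor of pericytes (r = 0.9996), and Plbd2 (r = 0.9994). For Nid2 they were Cpxm2 (r = 0.9996) and Tmem56 (r = 0.9994), for Hspg2 Rasl12 and Trim12, and for Lama4 Entpd1, an ectonucleotidase of vessels, and Shisa5. Lama5 had Itpr3 and Fnbp1l, Lamb2 had Mfng and Rgs3, and Lamc1 had Dtx3l and Rasa3. Nid1 had Pik3r6 and Gipc2 (r = 0.9966 and 0.9939), Lama3 had Ankrd13d and Enpp4, and Lama1 had Lsm3 and Ubxn1 (r = 0.9855 and 0.9798), the lowest of the members. The arrays share 1 reference, and between 18527 and 18528 probes of other genes were ranked for each member.

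Apart from Nid2, each member's brightest probe had its highest mean level in the CH, its next in the RPE and its lowest in the PR, an order that for Lama1 turned between the CH and the RPE when Cy5 was read alone or when CH 1, RPE 1 or RPE 2 was left out. The arrays of the CH and the RPE overlapped for Lama1, Lama3, Lamb2 and Nid1, and at each of these probes the arrays of the RPE lay above those of the PR. Nid2 had the order RPE, CH and PR. The members lie on 9 chromosomes, and Lama2 and Lama4 share chromosome 10, with probes at chr10:26701254-26701313 and chr10:38825794-38825853. On the same build (mm9) the other brightest probes are at chr17:68171924-68171983 for Lama1, chr2:179911079-179911138 for Lama5, chr9:108392189-108392248 for Lamb2, chr1:155066156-155066215 for Lamc1 and chr4:137126392-137126451 for Hspg2.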

How the data were processed

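The study hybridised 9 dual-colour Agilent arrays, 3 each for CH, RPE and PR. The authors deposited Agilent Feature Extraction 9.5.3.1 output with 2 channels per spot, and the scanned mean signals and local backgrounds, which are intensity values, were the start here. The log ratio that the software itself gives is a deposited log10 value. A series table of the authors gives Cy5 as log2 values (r with the scanned log2 Cy5 signal from 0.9845 to 0.9991, its normalization not given in the sources used here). The last 2 served as alternatives only. The submitters' processing notes name R 2.14.0 and limma.

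Control spots were left out, which kept 43020 of 44397 spots. The normexp method (offset 50) removed background, loess was applied to log2(Cy5/Cy3) in each array, and 228 to 586 spots per array with an outlier flag were dropped. Spots were averaged to 39429 probes. A mean per tissue was then fitted over all 9 arrays (limma 3.58.1, R 4.3.3, eBayes), and p-values were adjusted by the Benjamini-Hochberg method across all probes. Probes were called at a fold change over 2.5 with an adjusted p under 0.01, as in the study's methods, and a gene was called if at least 1 of its probes was. Simulated arrays of these 39429 probes had 100 probes changed by a log2 of 2 and 100 by a log2 of 3. The fit called 96% and 97% in RPE against CH, 90% and 99% in RPE against PR, and 94% and 100% in CH against PR. Both sizes are over the fold of a call, so these rates do not cover the smaller member differences between the RPE and the CH.

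The members and the lists of basement membrane and marker genes were chosen with earlier results of these data known. All probes of the 10 members are named, with 3 other laminin chains. From the list of 33 other genes (1 more gene of the list is not reported here), the 3 called genes with the largest fold change in each direction of each comparison, without overlap of the arrays, are named, and for each member the 2 probes of other genes most like it. Marker lists covered 12 cell types, of which inner retina and skeletal muscle had 0 genes called between the RPE and the CH, with median log2 differences of 0.04 and -0.05. Samples that share a replicate number deviated from their tissue means with correlations from -0.08 to 0.29, so the numbers were not taken as pairs. Probe positions are those of the files (mm9), and RefSeq tables (GRCm38.p6) gave names and promoters. There were 24 alternatives, 22 of them for single values. Tests of pairs and the plots were made in Python 3.11.15 with scipy 1.17.1, numpy 2.4.6 and pandas 2.3.3.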

Additional observations from a re-analysis of the deposited data

How the results depend on the processing

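Member probes called against the PR numbered between 10 and 12 of 15 over the 24 alternatives, for the RPE and for the CH, and 0 were called higher in the PR under any. Between the RPE and the CH, 1 member probe was called higher in the RPE at a fold change over 2 (Nid2) and 1 was called higher in the CH at that fold or with median centring (Lama4). With each array left out in turn, the count higher in the RPE was between 0 and 1, as Nid2 was called without CH replicate 3 or RPE replicate 3. A count by an adjusted p under 0.01 at any fold was chosen after seeing the data. Between the RPE and the CH it was 1 higher in the RPE (5.18% of all probes) and 5 higher in the CH (6.92%).

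With replicate number as a block, which the deviations of the samples do not bear out as pairs, the counts of member probes were 0 and 0 between the RPE and the CH and 11 for each tissue against the PR, and the adjusted p of the dimmer Lama3 probe between the RPE and the CH became 0.0107. Between the RPE and the CH, Lama1 turned from -0.01 to 0.0022 when Cy5 was read alone and was between -0.18 and 0.13 with an array left out, turning without CH 1, RPE 1 or RPE 2. The second Nid1 probe turned from 0.46 to -0.19 without RPE 3 (range 0.86 to -0.19 with an array left out), and the last one from 0.16 to -0.02 without CH 3 and to -0.15 without RPE 3 (range 0.35 to -0.15). The cause was not tested.

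Between the RPE and the CH, the adjusted p was under 0.01 in 20 of 22 alternatives for Lama4 and the brighter Lama2 probe. It was so in 19 for Nid2, in 15 for Lamc1 and the brighter Hspg2 probe, and in 11 for the dimmer Lama3 probe. At the other probes of these genes it was so in 2 for Lama2, 0 for Hspg2 and 0 for Lama3. For the 6 probes named first it was 0.01 or more with Cy5 alone and in the authors' series table (0.0284 to 0.196). Leaving out CH 1, CH 2, RPE 1 or RPE 3 brought it over 0.01 for Lamc1 and the brighter Hspg2 probe (0.0101 to 0.0203). The call of the second Hspg2 probe between the RPE and the PR was also lost without background correction (1.30), with Cy5 alone (1.22) and in the series table (1.46), and that between the CH and the PR in the last 2 (1.69 and 2.14). Of 1047 single values under an alternative or within a slide, 1009 kept their direction and their side of the thresholds or moved by less than the spread of the arrays. Some of these alternatives could not move a log2 difference, so the count is not a measure of stability. Quantile normalization between arrays after loess left the differences as they were. So did blocks by slide or by replicate number between the RPE and the CH. Signal over background limits the last Nid1 probe, and the PR values of the dimmer Lama3 and Hspg2 probes.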
